A study of Homo sapiens with 6 samples.

Results

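A-kinase anchoring proteins (AKAPs) are scaffolds that tether protein kinase A, the cAMP-dependent kinase, to chosen places in the cell. The 10 AKAP genes described here are AKAP1, AKAP5, AKAP7, AKAP8, AKAP8L, AKAP9, AKAP10, AKAP11, AKAP12 and AKAP13, taken by name from the 31122 genes of the count table, and all 10 had a row in the counts and in the FPKM values. They were read in 6 poly(A) RNA libraries of MDA-MB-468, an established basal-like, triple-negative breast cancer cell line. The KO-labelled group held 3 libraries, 1 from each of the populations titled 11, 12 and OG (KO-labelled 1, 2 and 3), made by CRISPR-Cas9 editing of GPR52 with a single guide RNA. GPR52 encodes an orphan receptor that couples to G proteins and raises cAMP. The parental group held 3 libraries from unedited cells in wells of 1 plate (parental 1, 2 and 3), and the labels name no treatment of either group. Sanger sequencing was reported to show indels in the edited populations, but whether each is a clone or a pool is not stated, and no cells with a non-targeting guide were analysed here, so editing, selection and time in culture cannot be told apart. No source says that the libraries of a group are separate experiments, so the spread behind each p-value is that between these libraries and may be technical.

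A typical AKAP carries a short helix that docks onto the regulatory subunits of protein kinase A. A separate targeting region fixes the complex to an organelle, a membrane or the chromatin. Most AKAPs bind phosphatases, phosphodiesterases, protein kinase C or GTPase regulators as well, so that cAMP signals start and stop at 1 place. AKAPs prefer type II regulatory subunits, and some also bind type I.

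Total counts were 25637794 to 31692454 per library, and 17420 genes had enough counts to be tested. Epithelial genes were abundant in every library: the summed level of EPCAM, CDH1, KRT7 and KRT19 was 3435 to 3696 CPM (counts scaled to library size) in KO-labelled libraries and 3592 to 3925 CPM in parental libraries. Within that sum EPCAM was called higher in KO-labelled libraries, CDH1 and KRT7 were called lower and KRT19 was not called. Of 5 luminal genes 3 (ESR1, FOXA1 and KRT18) were called lower, and of 6 basal genes 2 were called higher and 1 lower. Beside these marker calls stands a share of 40.8% called over all tested genes, 21% higher and 19.8% lower. The part of these marker differences in the AKAP values was not tested. Immune markers summed to at most 0.141 CPM in KO-labelled libraries and 0.330 CPM in parental libraries, and endothelial markers to at most 1.39 CPM and 1.75 CPM. Among fibroblast markers only COL1A1 had enough counts to be tested, and it was called higher in KO-labelled libraries, while COL1A2 had 1 count in all. GPR52 itself had 645, 694 and 724 counts in KO-labelled libraries and 9, 1 and 0 in parental libraries, the opposite of a lost transcript, so directions below are those of the libraries labelled GPR52 KO, whatever the state of the receptor in them. Whether the labels were exchanged or the KO-labelled cells are another subline was not tested, and an exchange of labels would turn every direction round.

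Promoter sequence was at hand from RefSeq (GRCh38.p14) for 9 of the 10 genes, in 16 windows, some genes having several annotated starts. The 250 bases before the start are shown for the 2 starts of AKAP13, the tested AKAP gene with the largest log2 fold change, with CG dinucleotides in capitals. The starts differ in kind: the first window holds 23 CG dinucleotides and the second 2, and the gene-level counts do not say which start was used.
AKAP13 first start, chr15:85380353-85380602, + strand: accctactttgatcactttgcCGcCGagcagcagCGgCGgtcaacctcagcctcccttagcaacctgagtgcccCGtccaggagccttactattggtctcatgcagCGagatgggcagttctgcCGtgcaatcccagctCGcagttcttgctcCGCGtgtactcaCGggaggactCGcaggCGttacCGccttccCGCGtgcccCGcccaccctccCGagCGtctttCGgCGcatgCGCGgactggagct
AKAP13 second start, chr15:85619700-85619949, + strand: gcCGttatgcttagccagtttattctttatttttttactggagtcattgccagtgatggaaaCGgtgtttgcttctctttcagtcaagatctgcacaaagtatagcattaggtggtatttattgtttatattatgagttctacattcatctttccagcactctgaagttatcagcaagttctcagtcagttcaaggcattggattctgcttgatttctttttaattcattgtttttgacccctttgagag
All promoter windows of 300 bases (250 before and 50 after the start) were searched on both strands for the cAMP response element TGACGTCA, to which the factor CREB binds, and for its core TGACG, which the full element contains. No AKAP window held the full element, against 1.85% of the 35116 windows of all genes. The core lay in 7 of the 16 AKAP windows, which belong to AKAP1, AKAP7, AKAP8 and AKAP9, and in 24.6% of all windows. A pair of overlapping AKAP1 windows share 1 of these sites, which is therefore counted in both. Counted by gene, 4 of the 9 AKAP genes with a window held a core. The core contains a CG dinucleotide, and AKAP windows were richer in these. The median was 26 per 250 bases in AKAP windows and 11 in all windows, so the shares with a core are not like for like. A match describes letters and is not a binding site. It did not sort the genes by direction: AKAP8, called higher, and AKAP7, called lower, each held a core, shown in capitals in the 250 bases before the start.
AKAP8, chr19:15379788-15380037, - strand: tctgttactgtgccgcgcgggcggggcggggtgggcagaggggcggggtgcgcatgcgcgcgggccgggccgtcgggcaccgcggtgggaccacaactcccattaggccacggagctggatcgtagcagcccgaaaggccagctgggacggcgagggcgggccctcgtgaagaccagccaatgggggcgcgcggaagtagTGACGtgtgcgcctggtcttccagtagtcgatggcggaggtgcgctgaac
AKAP7 first start, chr6:131135217-131135466, + strand: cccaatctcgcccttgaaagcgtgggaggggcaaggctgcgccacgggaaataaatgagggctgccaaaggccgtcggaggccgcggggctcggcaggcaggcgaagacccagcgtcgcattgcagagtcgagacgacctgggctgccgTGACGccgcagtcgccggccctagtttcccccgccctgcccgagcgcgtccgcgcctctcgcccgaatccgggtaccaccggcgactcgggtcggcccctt

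What happens to the anchoring scaffolds in cells labelled as edited at a cAMP-coupled receptor is the question of the comparison. Of the 10 genes, 9 were tested, and 3 of these (AKAP13, AKAP8 and AKAP8L) were higher in KO-labelled libraries, 1 (AKAP7) was lower and 5 (AKAP1, AKAP5, AKAP9, AKAP10 and AKAP11) were not called (edgeR quasi-likelihood test, Benjamini-Hochberg adjusted p under 0.05 over all tested genes). Over all tested genes 40.8% were called, 21% higher and 19.8% lower, so 4 of 9 is near the share among all genes. The median log2 fold change of the 9 genes was 0.22, beside 0.01 over all tested genes, and 8 of the 9 values were above 0. Of these 8, AKAP1 (0.01), AKAP10 (0.07) and AKAP9 (0.09) were close to 0 and not called. The share of all tested genes above 0 was not counted. AKAP12 was nearly silent and had too few counts for the test. Under a test against a 1.5-fold change, which called 11% of all genes, AKAP13 alone was called. In bulk RNA, fewer cells with a transcript and less of it per cell cannot be told apart.

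**Figure D1:**
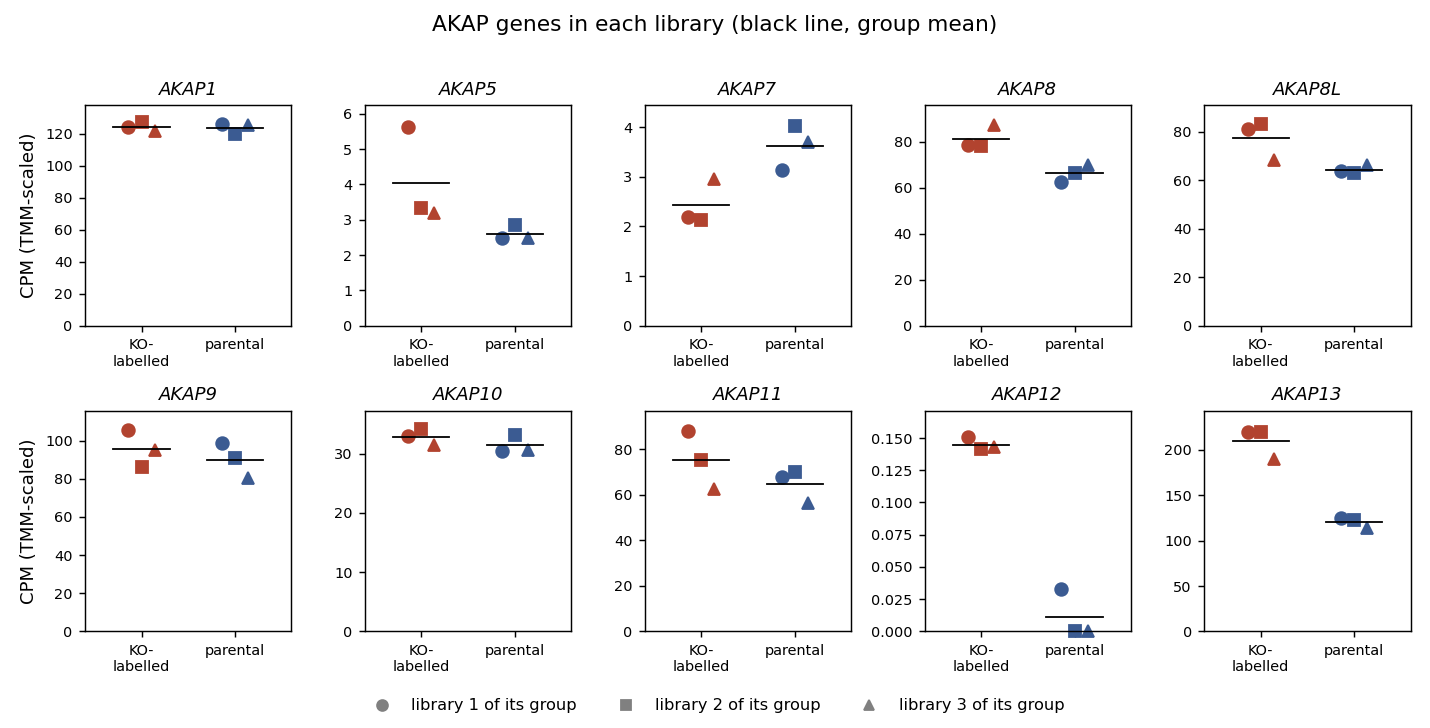
Level of the 10 AKAP genes as CPM with TMM-scaled library sizes, 1 panel per gene with its own axis from 0, KO-labelled libraries left (red) and parental libraries right (blue), 1 symbol per library and a black line at the group mean. AKAP13 lies between 190 and 219.5 CPM in KO-labelled libraries and between 114 and 125 CPM in parental libraries, whereas AKAP1, AKAP9, AKAP10 and AKAP11 overlap between the groups.

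AKAP13, also called AKAP-Lbc, is a scaffold that, besides holding protein kinase A, activates the GTPase RHOA. It had 219, 219.5 and 190 CPM in KO-labelled libraries and 125, 123 and 114 CPM in parental libraries. All KO-labelled libraries were above all parental ones, with KO-labelled 3 the lowest of its group. The means were 209.6 ± 17.0 CPM and 121 ± 5.87 CPM (SD, n = 3 each, as throughout), and on the log2 scale the fold change was 0.79 (SE 0.08, edgeR adjusted p = 2.0e-04). The authors' FPKM values, which are scaled by transcript length, went further, with 28.5 ± 3.25 FPKM in KO-labelled libraries and 14.03 ± 1.51 FPKM in parental libraries. The difference on the log2(FPKM + 1) scale was 0.97 (SE 0.12), with a limma adjusted p of 7.7e-04. In GENCODE 29, 9.28% of the exonic bases of AKAP13 are overlapped by exons of genes on the opposite strand, and no source says whether strand was used in counting.

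AKAP13 differed by as much as the median of its chromosomal neighbourhood. The 109 other tested genes placed within 10 Mb on either side of it on chromosome 15 had a median log2 fold change of 0.79. Of these, 69.7% were called higher and 3.67% lower. Its nearest tested protein-coding neighbours also rose: PDE8A, a phosphodiesterase that breaks down cAMP, by 0.65 on the log2 scale (edgeR adjusted p = 0.00394) and KLHL25 by 1.19 (adjusted p = 7.7e-04). In a window of 10 Mb in all, the median was 0.81 over 53 genes. Relative to the larger window, by an offset chosen after seeing the data, the log2 fold change of AKAP13 was 0.001 (SE 0.08) with an edgeR adjusted p of 0.993, in a fit that still called 34.1% of all genes. Gene order was taken from a GRCh38 annotation, whereas the deposited values were made on hg19. Copy number was not measured, and its part in the difference was not tested.

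**Figure D2:**
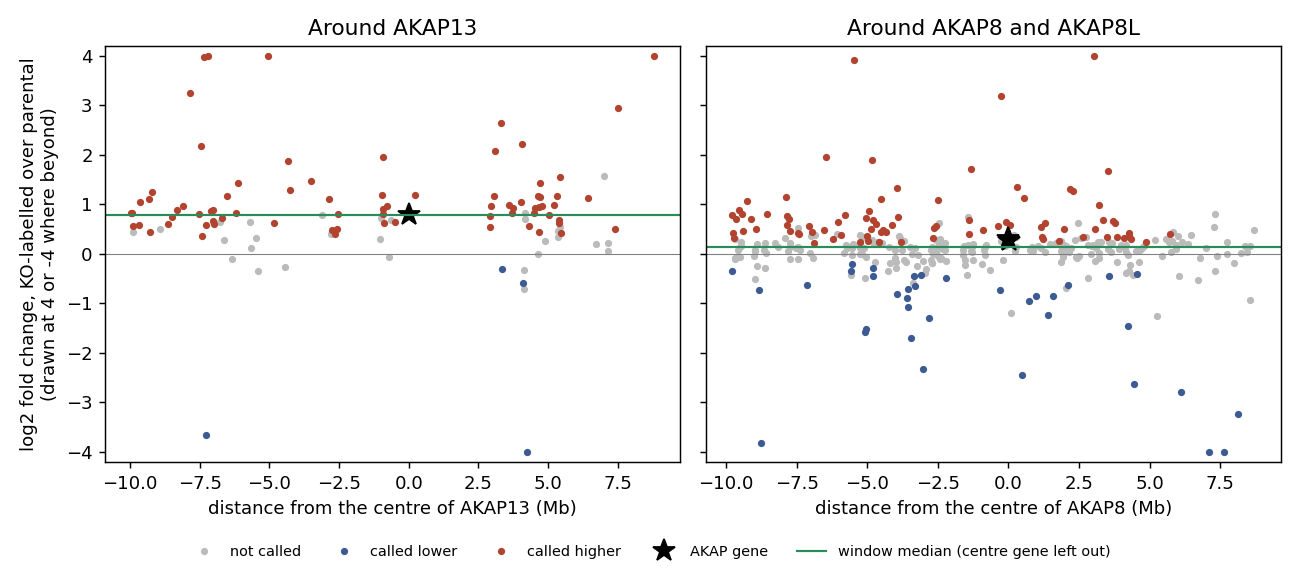
Log2 fold change (KO-labelled over parental) of every tested gene within 10 Mb of AKAP13 (left) and of AKAP8 (right), plotted by distance from the centre of the AKAP gene in Mb, red where called higher, blue where called lower, grey where not called, with AKAP genes as stars and the window median as a green line, values beyond 4 or -4 being drawn there. AKAP13 sits on the median of its window (0.79), and AKAP8 and AKAP8L sit above theirs (0.13).

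AKAP8 (AKAP95) and AKAP8L are paralogues that encode nuclear zinc finger proteins, and AKAP8 takes part in chromatin condensation at mitosis. The genes lie next to each other on the minus strand of chromosome 19, less than 250 bases apart in GENCODE 29. AKAP8 had 78.4, 78.3 and 87.4 CPM in KO-labelled libraries and 62.6, 66.3 and 69.7 CPM in parental libraries. The groups did not overlap, and KO-labelled 3 was the highest library of all. The log2 fold change was 0.30 (SE 0.08), with an edgeR adjusted p of 0.0173. AKAP8L had 81.2, 83.1 and 68.2 CPM in KO-labelled libraries and 63.9, 63.0 and 66.3 CPM in parental libraries. Here KO-labelled 3 was the lowest of its group and only just above parental 3. The log2 fold change was 0.27 (SE 0.09), with an edgeR adjusted p of 0.0433.

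The AKAP8 call was lost without parental 1 (adjusted p = 0.0929) or parental 2 (0.0751), and the AKAP8L call held only without KO-labelled 3 (9.2e-04), being lost with any of the other 5 libraries left out (0.0943 to 0.153, edgeR). It was lost as well in edgeR without a filter on low counts (adjusted p = 0.0864). With a library left out the log2 fold changes kept their sign, at 0.24 to 0.33 for AKAP8 and 0.21 to 0.35 for AKAP8L. Over all alternatives they ran from 0.17 to 0.34 for AKAP8 and from 0.14 to 0.35 for AKAP8L. In FPKM, AKAP8 had 19.4 ± 1.55 in KO-labelled libraries and 15.6 ± 1.18 in parental libraries, and AKAP8L had 49.1 ± 6.17 and 39.2 ± 1.12, again with no overlap. Their window on chromosome 19 had a median log2 fold change of 0.13 over 340 genes. The zinc finger gene WIZ, which borders AKAP8L, rose by 0.59 on the log2 scale (edgeR adjusted p = 0.00120). Relative to the window, AKAP8 was at 0.17 and AKAP8L at 0.14 on the log2 scale and neither was called (edgeR adjusted p of 0.133 and 0.265). For AKAP8L, 31.8% of the exonic bases are overlapped by genes on the opposite strand, so part of its counts may belong to them if strand was ignored.

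The paralogues did not keep a fixed proportion across the KO-labelled libraries. AKAP8L counts were 1.04 and 1.06 times AKAP8 counts in KO-labelled 1 and 2 but 0.780 times in KO-labelled 3, against 1.02, 0.9502 and 0.9511 times in parental 1 to 3. KO-labelled 3 was thus the library with the lowest ratio, below every parental one. In FPKM, the same ratio was 2.88, 2.81 and 1.99 in KO-labelled libraries and 2.60, 2.65 and 2.31 in parental libraries. The FPKM ratio was above the count ratio although AKAP8L has more exonic bases in GENCODE 29 (5081, against 4296 for AKAP8), and the transcript lengths behind the FPKM are not known here.

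AKAP7 encodes short and long forms of an AKAP, of which membrane-bound ones link protein kinase A to ion channels such as L-type calcium channels. It had 2.19, 2.12 and 2.96 CPM in KO-labelled libraries and 3.13, 4.01 and 3.70 CPM in parental libraries, from 58 to 115 counts per library. The groups did not overlap, but KO-labelled 3 came close to parental 1. The log2 fold change was -0.57 (SE 0.19), with an edgeR adjusted p of 0.0416. The call did not survive most other choices: it was lost when any library but KO-labelled 3 was left out (adjusted p of 0.0562 to 0.1397), and in FPKM the groups overlapped, with 1.27 ± 0.248 in KO-labelled libraries and 1.66 ± 0.329 in parental libraries. The 65 genes of its window had a median log2 fold change of -0.04, and relative to them AKAP7 was at -0.53 (edgeR adjusted p = 0.0631).

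AKAP5 (AKAP79) is a membrane scaffold, best known at synapses, that holds calcineurin and protein kinase C beside protein kinase A. It had 5.61, 3.32 and 3.18 CPM in KO-labelled libraries and 2.47, 2.86 and 2.47 CPM in parental libraries. KO-labelled 1 was far above the rest, and KO-labelled 2 and 3 were slightly above the parental range. The log2 fold change of 0.63 (SE 0.25) was not called (edgeR adjusted p = 0.0723). It was 0.32 without KO-labelled 1, while without KO-labelled 3, in a fit that called 52.6% of all genes, it was called at 0.78 (adjusted p = 0.0164).

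AKAP12 (gravin) is a plasma membrane scaffold for protein kinases A and C that is silenced in several tumour types. It had 4 counts in each KO-labelled library and 1, 0 and 0 in parental libraries, or 0.141 to 0.151 CPM against at most 0.0330 CPM, where 0 counts allow up to 0.119 CPM in parental 2 and 0.0965 CPM in parental 3. The ratio of the 12 counts to the 1 count, scaled to library size, was 12.5 (exact 95% binomial interval 1.86 to 536, counting error only). At under 0.08 FPKM in every library, AKAP12 was the lowest of the 10 genes. Without a filter on low counts edgeR called it higher (adjusted p = 0.0350), whereas DESeq2 (0.0824) and limma on log2(FPKM + 1) (0.251) did not. Its neighbourhood on chromosome 6 went the other way, with a median log2 fold change of -0.63 over 76 genes and 67.1% of them called lower.

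The organelle AKAPs AKAP1, AKAP10 and AKAP9 were not called. AKAP1, which anchors protein kinase A at the outer mitochondrial membrane, had 124, 127 and 122 CPM in KO-labelled libraries and 126, 119.6 and 125.5 CPM in parental libraries, with a log2 fold change of 0.01 (SE 0.06, edgeR adjusted p = 0.932). AKAP10, which carries RGS domains and binds both types of regulatory subunit, had 32.9 ± 1.37 CPM in KO-labelled libraries and 31.4 ± 1.45 CPM in parental libraries, a log2 fold change of 0.07 (SE 0.08). AKAP9 (AKAP450, with the short form yotiao), of the Golgi and centrosome, had 95.7 ± 9.62 CPM in KO-labelled libraries and 89.9 ± 9.40 CPM in parental libraries, a log2 fold change of 0.09 (SE 0.10). The groups overlapped for these genes, and no leave-one-out fit called them. For AKAP1, nearly equal CPM stood beside 31.9 ± 2.26 FPKM in KO-labelled libraries and 28.95 ± 0.848 FPKM in parental libraries, which overlapped as well.

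AKAP11 (AKAP220) is a vesicle-associated scaffold that binds protein phosphatase 1 and the kinase GSK3. It had 87.9, 75.2 and 62.6 CPM in KO-labelled libraries and 67.7, 69.8 and 56.5 CPM in parental libraries. KO-labelled 3 lay inside the parental range and the other KO-labelled libraries above it. The log2 fold change of 0.22 (SE 0.14) was not called with all libraries (edgeR adjusted p = 0.229), was 0.09 without KO-labelled 1 and 0.12 without parental 3, and was called higher without KO-labelled 3 (0.33, adjusted p = 0.0187). With KO-labelled 3 left out, 5 of the 9 tested AKAP genes were higher and 1 lower, in the fit that called 52.6% of all genes.

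**Figure D3:**
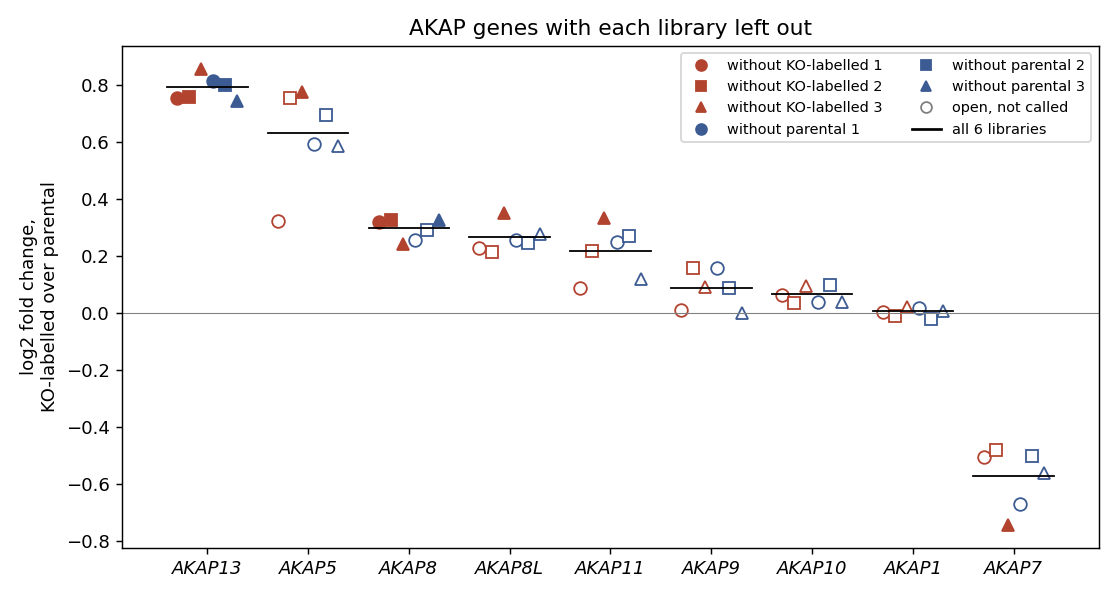
Log2 fold change (KO-labelled over parental) of the 9 tested AKAP genes with each library left out in turn, red symbols for a KO-labelled and blue for a parental library left out, filled where the gene was called and open where it was not, with a black line at the value from all 6 libraries. AKAP13 is filled in all 6 fits, between 0.74 and 0.86, and AKAP5 spans 0.32 to 0.78.

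The spread of log2 CPM was wider among KO-labelled than among parental libraries for 6 of the 9 tested AKAP genes and for 13298 of all 17420 tested genes. Over these genes, log2 CPM had a median SD of 0.145 in KO-labelled libraries and 0.077 in parental libraries, beside 0.19 and 0.09 over all tested genes. AKAP5 and AKAP7 had the widest SD of log2 CPM in KO-labelled libraries, 0.45 and 0.26, and AKAP1 the narrowest at 0.03. The groups did not overlap in CPM for 5 of the 9, AKAP5, AKAP7, AKAP8, AKAP8L and AKAP13, while 54.4% of all tested genes did not overlap.

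**Figure D4:**
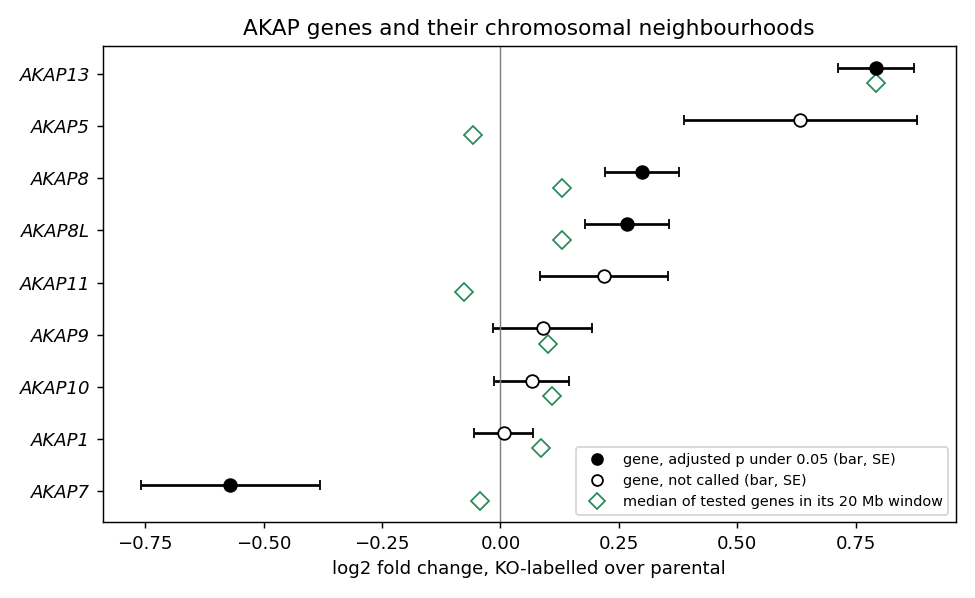
Log2 fold change (KO-labelled over parental) of the 9 tested AKAP genes with its SE as a bar, filled where the adjusted p was under 0.05, and as green diamonds the median log2 fold change of the tested genes in the 20 Mb window around each, without that gene. The diamond lies directly under the point for AKAP13 (0.79 each) and away from it for AKAP5 (-0.06) and AKAP7 (-0.04).

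Among the 10 genes, compared per length by the authors' FPKM, AKAP8L and AKAP1 ranked first and second in every library. AKAP7, AKAP5 and AKAP12 were the lowest of the 10, in that order. AKAP2, described below and not among the 10, was above AKAP1 in parental libraries, at 32.6, 32.5 and 31.7 FPKM. AKAP13 ranked at 3 in all KO-labelled libraries and in parental 1, and at 4, behind AKAP8, in parental 2 and 3. In KO-labelled libraries AKAP13, at 25.1 to 31.6 FPKM, overlapped AKAP1, at 29.6 to 34.1 FPKM, whereas in parental libraries AKAP13, at 12.29 to 15.01 FPKM, overlapped AKAP8, at 14.7 to 16.9 FPKM. AKAP9 and AKAP10 overlapped in KO-labelled libraries, at 9.39 to 11.6 and 8.6 to 10.4 FPKM, and not in parental libraries, at 9.61 to 10.4 and 8.21 to 8.85 FPKM. The FPKM of the 10 genes summed to 157 ± 11.6 in KO-labelled libraries and 124 ± 1.66 in parental libraries, with no overlap. AKAP13 made up 17.3% to 18.8% of this sum in KO-labelled libraries and 9.95% to 12.1% in parental libraries. The largest differences in mean FPKM were those of AKAP13 and of AKAP8L (49.1 against 39.2), while the mean of AKAP7 was lower in KO-labelled libraries. For AKAP1 the mean FPKM was higher (31.9 against 28.95) although its mean CPM was nearly equal (124.4 against 123.8), so FPKM and CPM differ in scaling.

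**Figure D5:**
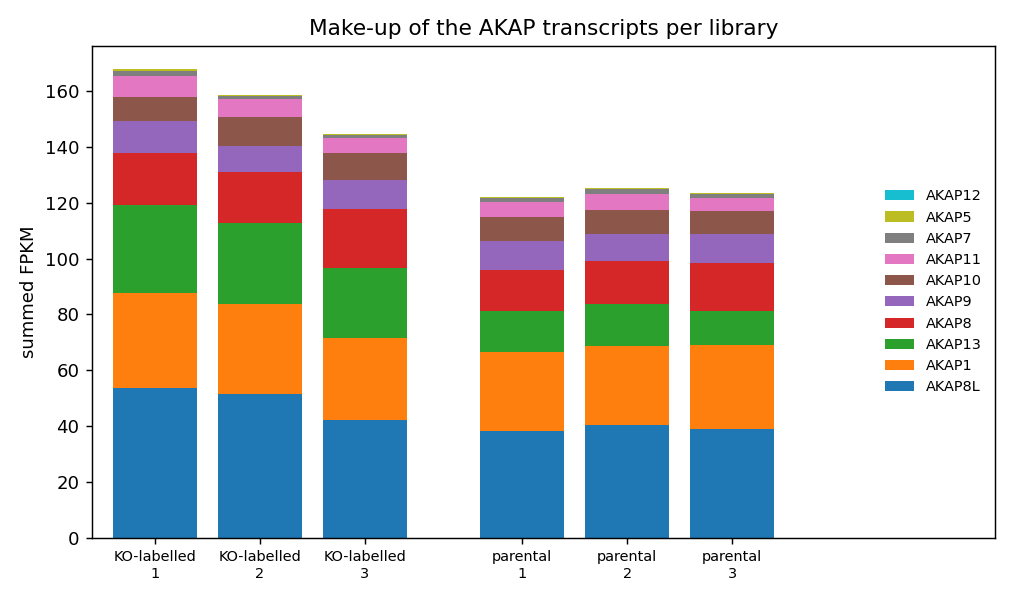
FPKM of the 10 AKAP genes stacked per library, KO-labelled left and parental right, each colour 1 gene. The sum runs from 145 to 168 FPKM in KO-labelled libraries and from 122 to 125 FPKM in parental libraries, and the AKAP13 band is wider in each KO-labelled library.

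The genes most like AKAP13 over the 6 libraries, by Pearson correlation of log2 CPM among 12149 genes with an average log2 CPM of at least 2, were SMARCA5 (r = 0.999), RFX2 (0.999) and RIMS4 (0.999), and those most like AKAP8 were MYL6B (0.996), ATG13 (0.995) and LRRC8A (0.994). These are descriptions over 6 points in 2 groups: 1023 genes had an r over 0.95 with AKAP13 and 357 with AKAP8.

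Other genes with an AKAP symbol fell or were not called. AKAP6 (mAKAP), which anchors protein kinase A at the nuclear envelope of muscle cells, had 30.4, 25.7 and 20.1 CPM in KO-labelled libraries and 47.1, 43.5 and 40.1 CPM in parental libraries. The groups did not overlap, and the log2 fold change was -0.78 (SE 0.15, edgeR adjusted p = 0.00390), -0.74 relative to its window (adjusted p = 0.00654), and was called with each library left out. Of the 7 symbols, 3 had enough counts for the test, and AKAP6 was the 1 called, beside 40.8% called over all tested genes. AKAP2 was read differently by its count and its FPKM: it had 24, 21 and 51 counts in KO-labelled libraries and 44, 37 and 50 in parental libraries, beside 16.3, 11.6 and 24.2 FPKM and 32.6, 32.5 and 31.7 FPKM. In counts it was not called (log2 fold change -0.38, SE 0.32, edgeR adjusted p = 0.374), while in FPKM the groups did not overlap and the difference on the log2(FPKM + 1) scale was -0.92 (limma adjusted p = 0.0158, and 0.0978 without a filter on low FPKM), in a test that called 35.9% of genes. In GENCODE 29, 85.8% of the exonic bases of AKAP2 are also exons of the readthrough gene PALM2-AKAP2, so AKAP2 is uncertain. PALM2-AKAP2 itself had 5.13 ± 0.294 FPKM in KO-labelled libraries and 8.23 ± 0.912 FPKM in parental libraries. Its counts came to only 1 over the KO-labelled libraries and 1 over the parental libraries, so its level is uncertain as well. AKAP17A, a splicing factor with AKAP activity, was read from FPKM, at 3.19 ± 0.219 in KO-labelled libraries and 4.84 ± 0.191 in parental libraries (log2(FPKM + 1) difference -0.48, limma adjusted p = 0.00705).

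Of 18 anchoring proteins known by other names, 14 were tested, 2 higher, 5 lower and 7 not called, beside 40.8% called over all tested genes, with a median log2 fold change of -0.06. CMYA5 (myospryn) had 16.8 ± 4.09 CPM in KO-labelled libraries and 93.3 ± 6.21 CPM in parental libraries, a log2 fold change of -2.47 (SE 0.17). Ezrin (EZR), which ties the membrane to actin, had 315 ± 21.4 CPM in KO-labelled libraries and 583 ± 4.54 CPM in parental libraries, a log2 fold change of -0.89 (SE 0.07). PJA2, a ubiquitin ligase for regulatory subunits, fell by 0.64, GSKIP, which binds GSK3, by 0.51 and the Golgi protein ACBD3 by 0.49 on the log2 scale, whereas the intermediate filament protein SYNM rose by 0.53. Their edgeR adjusted p-values ran from 3.2e-05 for CMYA5 to 0.00771 for GSKIP. Relative to their windows CMYA5 (-2.42), PJA2 and GSKIP were still called, and EZR (-0.13), ACBD3 (-0.14) and SYNM (-0.20) were not. Over the whole list that fit had 1 gene higher, GPR161 (0.72), and 4 lower, among them ARFGEF2 (-0.28). Without the window offset GPR161 was the other gene called higher (0.35, edgeR adjusted p = 0.0327), and ARFGEF2 was not called. The GPR161 call was lost without KO-labelled 1 or any 1 parental library.

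Protein kinase A itself was read from 7 subunit and related genes, of which 2 were higher, 4 lower and 1, PRKACA, not called, beside 40.8% called over all tested genes, and the median log2 fold change was -0.25. The type I regulatory subunits PRKAR1A and PRKAR1B were higher, at log2 fold changes of 0.31 (SE 0.09) and 0.72 (SE 0.18), and the type II subunits PRKAR2A and PRKAR2B lower, at -0.25 (SE 0.07) and -1.53 (SE 0.12). PRKAR2B had 22.7 ± 3.59 CPM in KO-labelled libraries and 65.5 ± 5.54 CPM in parental libraries. The catalytic subunit PRKACB was at -0.37 (SE 0.10) and the related kinase PRKX at -0.56 (SE 0.08). Their edgeR adjusted p-values ran from 6.9e-05 for PRKAR2B to 0.0317 for PRKAR1A. Relative to their windows 3 were lower, PRKAR2A, PRKAR2B and PRKX, and none was higher, PRKAR1A being at -0.07 and PRKAR1B at 0.22, and with a library left out between 0 and 2 were higher and between 2 and 4 lower. PRKAR1B and PRKAR2A lost their calls without parental 1 or parental 2, PRKACB without any 1 parental library, and PRKAR1A in all leave-one-out fits but those without KO-labelled 3 or parental 2. In FPKM the groups overlapped for PRKAR2A, at 19.4 ± 0.797 in KO-labelled libraries and 20.3 ± 1.87 in parental libraries. They also overlapped for PRKX, where KO-labelled 3, at 6.50 FPKM, was above the parental libraries, at 5.90 to 6.23 FPKM. For the other subunits called here the groups did not overlap in FPKM.

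Of 21 enzymes and partners that AKAPs are known to bind, 16 were tested, 7 higher, 3 lower and 6 not called, beside the same 40.8%, with a median log2 fold change of -0.01. The cAMP phosphodiesterases PDE4D and PDE4A rose by 1.44 (SE 0.20) and 0.88 (SE 0.15) on the log2 scale, PDE4D having 5.27 ± 1.06 CPM in KO-labelled libraries and 1.96 ± 0.199 CPM in parental libraries. PDE4B, of the same phosphodiesterase family, had 8.70, 10.7 and 36.2 CPM in KO-labelled libraries and 26.1, 26.6 and 26.4 CPM in parental libraries. KO-labelled 3 lay above the parental range and the other KO-labelled libraries below it, and its log2 fold change of -0.51 was not called (edgeR adjusted p = 0.416), whereas without KO-labelled 3 it was called lower at -1.44 (adjusted p = 3.4e-06). Casein kinase CSNK1D rose by 0.57, protein kinase C epsilon (PRKCE) by 0.47 and the phosphatase subunit PPP1CB by 0.46, while RHOA, the GTPase that AKAP13 acts on, fell by 0.26 (SE 0.06). The edgeR adjusted p-values of these genes other than PDE4B ran from 4.0e-04 for CSNK1D to 0.0167 for PPP1CB. Relative to their windows PDE4D, PDE4A and RHOA were still called, and CSNK1D, PRKCE and PPP1CB were not. Over the whole list that fit had 3 genes higher and 3 lower. PPP1CB was called without KO-labelled 3 or without parental 2, and lost its call without any other library.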

How the data were processed

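Poly(A) RNA of 6 cultures was sequenced after a directional library kit, per the labels' protocols. The authors deposited raw counts per gene symbol and FPKM values, 1 column per library. Reads were handled on hg19 with Cufflinks 2.0.2, STAR 2.4.0f1 and SAMtools 0.1.19, per the submitters' processing notes, which give no roles. Program, strand setting and annotation of the counting: not given in the sources used here.

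Counts were tested with edgeR 4.0.16 in R 4.3.3: filterByExpr (minimum count 10, minimum total 15), TMM, quasi-likelihood F test in its non-legacy form, all 6 libraries, no covariate, Benjamini-Hochberg over 17420 genes, threshold 0.05. The SE is the log2 fold change divided by the square root of F. FPKM values were tested with limma 3.58.1 on log2(FPKM + 1) for genes with at least 1 FPKM in 3 libraries, a scale that understates changes of low genes. A count was worth 0.0322 to 0.0397 CPM with TMM-scaled library sizes, and intervals and floors (3 counts) cover counting error only. Log2 CPM used a prior count of 2. Gene order came from GENCODE 29 (GRCh38), which placed 82% of tested genes. The fits were checked on simulated data with the same spread setting in both groups. In the real data 13298 of 17420 genes had a wider spread in KO-labelled libraries, which that check does not cover.

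Genes named were the 10 AKAPs, up to 6 called genes of each of 4 related lists by smallest p, and the 3 genes most correlated with each of the 2 AKAPs of smallest p, among genes with an average log2 CPM of at least 2. Bordering genes are the nearest tested protein-coding ones. AKAP2, PALM2-AKAP2, AKAP17A, GPR161, ARFGEF2, PRKACA and PDE4B were named after their values were seen. The members and lists were chosen with earlier results of these data known. The groups share no replicate numbers in the labels. Alternatives were other normalisations, filters, DESeq2 1.42.0, limma voom, FPKM, a test against a 1.5-fold change and leaving out each library. The fit relative to neighbouring genes was added after seeing the data.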

Additional observations from a re-analysis of the deposited data

How the results depend on the processing

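AKAP13 kept its direction and its call under the other scalings, filters, tools and FPKM fits and with each library left out, at log2 fold changes of 0.74 to 1.02, and lost the call relative to its neighbouring genes (0.001). The number of AKAP genes called higher was 3 with all libraries, 1 in limma on log2(FPKM + 1) without a filter, 1 against a 1.5-fold change, and 0 relative to neighbouring genes, where edgeR put 1 higher gene at an unadjusted p under 0.05. With a library left out it ran from 1 to 5. It was also 3 in edgeR without a filter on low counts, where AKAP12 was called and AKAP8L (adjusted p = 0.0864) was not. The number called lower was 1 (AKAP7), and 0 with upper quartile scaling, with library totals alone, with at least 10 CPM in 3 samples (AKAP7 not tested), with DESeq2, in limma on log2(FPKM + 1) with and without the filter and on log2(FPKM + 0.1) with it, against a 1.5-fold change and relative to neighbouring genes, and 0 to 1 with a library left out. An unadjusted p under 0.05 in that direction was found for 1 gene in the upper quartile, library totals, DESeq2 and neighbour fits, and for 0 in the 10 CPM, FPKM and 1.5-fold fits. Genes near 0 changed sign: AKAP1 to -0.010 without a filter, to -0.078 relative to neighbouring genes and to between -0.022 and 0.021 with a library left out, and AKAP9 to -0.012 and AKAP10 to -0.043 relative to neighbouring genes. The cause was not tested. Other scalings moved the median of all genes by at most 0.044 on the log2 scale. No paired analysis was possible because the KO-labelled populations carry no replicate numbers that the parental wells share. Depth limits AKAP12, with 13 counts in all. Parental libraries are wells of 1 plate, and without cells carrying a control guide the effect of editing and culture cannot be told apart from that of the label.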
